A study of Bos taurus with 16 samples.

Results

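Elongin B (ELOB) and 7 genes whose products work with it were examined in needle biopsies of the mammary gland from 16 heifers of the Spanish breed Parda de Montaña, with 1 Affymetrix expression array per heifer. The genes were ELOB, ELOC, ELOA, CUL2, CUL5, VHL, RBX1 and RNF7, and every probe set whose annotation gives exactly 1 of these symbols was taken, an older symbol counting for its gene. This gave 9 probe sets of 26773 in all, with 2 for ELOB (12814073 and 12752669) and 1 for each of the 7 partners. ELOB was put forward because its level differed between the feeding groups on these same arrays, so its difference is described with no p-value. The partners were named for their place in the complexes.

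All heifers suckled their dams in bouts of 30 min up to 6 months of age. In that period 8 heifers also received a starter concentrate (CON), while the other 8 had dam's milk alone (NOCON). Between weaning and 15 months they ate alfalfa hay with concentrate at either 67% forage and 33% concentrate or 87% forage and 13% concentrate. The labels do not give the ration of each heifer, so the rations could not be compared, and by the design each feeding group holds both. Biopsies were taken with a needle when the first lactation ended, long after the concentrate had stopped, and the comparison asks whether feeding before weaning left a difference at that time.

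Elongin B is a small protein with a ubiquitin-like fold that pairs with elongin C, encoded by ELOC. The pair joins elongin A (ELOA) in a complex that helps RNA polymerase II to elongate transcripts, and the same pair links substrate receptors to the scaffold proteins cullin 2 (CUL2) and cullin 5 (CUL5) in ubiquitin ligases. VHL is a receptor of the cullin 2 ligase that binds the oxygen-dependent HIF transcription factors, while the RING proteins RBX1 and RNF7 bring the ubiquitin-conjugating enzyme to cullin 2 and cullin 5, respectively. In the mammary gland the family is known for the SOCS proteins, which bind the elongin B and C pair and, in the mouse, restrain prolactin signalling.

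The deposited values are on the log2 scale and the array medians ran from 4.25 to 4.57, so that values near these are those of dim probe sets. Precision is set by the number of arrays, which have no sequencing depth. The labelled tissue was checked against its markers: the milk protein genes CSN2 and LALBA averaged 12.38 and 12.08 over the CON arrays and 12.27 and 12.05 over the NOCON arrays. By contrast the keratin gene KRT8, also a luminal marker, was at 4.25 in CON and 4.26 in NOCON, near the array medians. Of the 16 arrays, 5 stood apart (CON 2, CON 6, CON 7, NOCON 1 and NOCON 5): their median correlation with the other arrays was 0.866 to 0.974, against 0.986 to 0.989 for the remaining 11, and CON 7 was the lowest. Results are therefore given with all arrays and without these 5, which leaves 5 CON and 6 NOCON arrays.

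Both probe sets assigned to ELOB were lower in CON. On probe set 12814073 the 8 CON arrays ran from 10.56 through a median of 10.74 to 10.87, and the 8 NOCON arrays from 11.13 through 11.28 to 11.40. The groups did not overlap, and the gap lay between CON 6 and NOCON 1. The CON mean was 10.74 ± 0.10 and the NOCON mean 11.28 ± 0.10 (SD, n = 8 each), a difference of -0.53 (SE 0.06), which is 1.45-fold lower. Since the biopsy is bulk tissue, fewer cells that make a transcript and less of it per cell cannot be told apart.

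Probe set 12752669 is listed under the older symbol TCEB2 without a gene identifier and was assigned to ELOB through that synonym. Without an identifier it may measure another locus or copy, and its place on the genome was not checked. Its values ran from 9.33 through 9.54 to 9.66 in CON and from 9.75 through 10.03 to 10.29 in NOCON, again with no overlap. The means were 9.51 ± 0.14 and 10.04 ± 0.19 (SD, n = 8 each), and the difference was also -0.53 (SE 0.08). Over the whole table, the groups did not overlap for 47 of 26773 probe sets, or 0.176%, but since ELOB was chosen on this contrast nothing is read from its place among them. Without the 5 arrays that stood apart, the ELOB differences were -0.57 (SE 0.06) and -0.53 (SE 0.07).

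**Figure D1:**
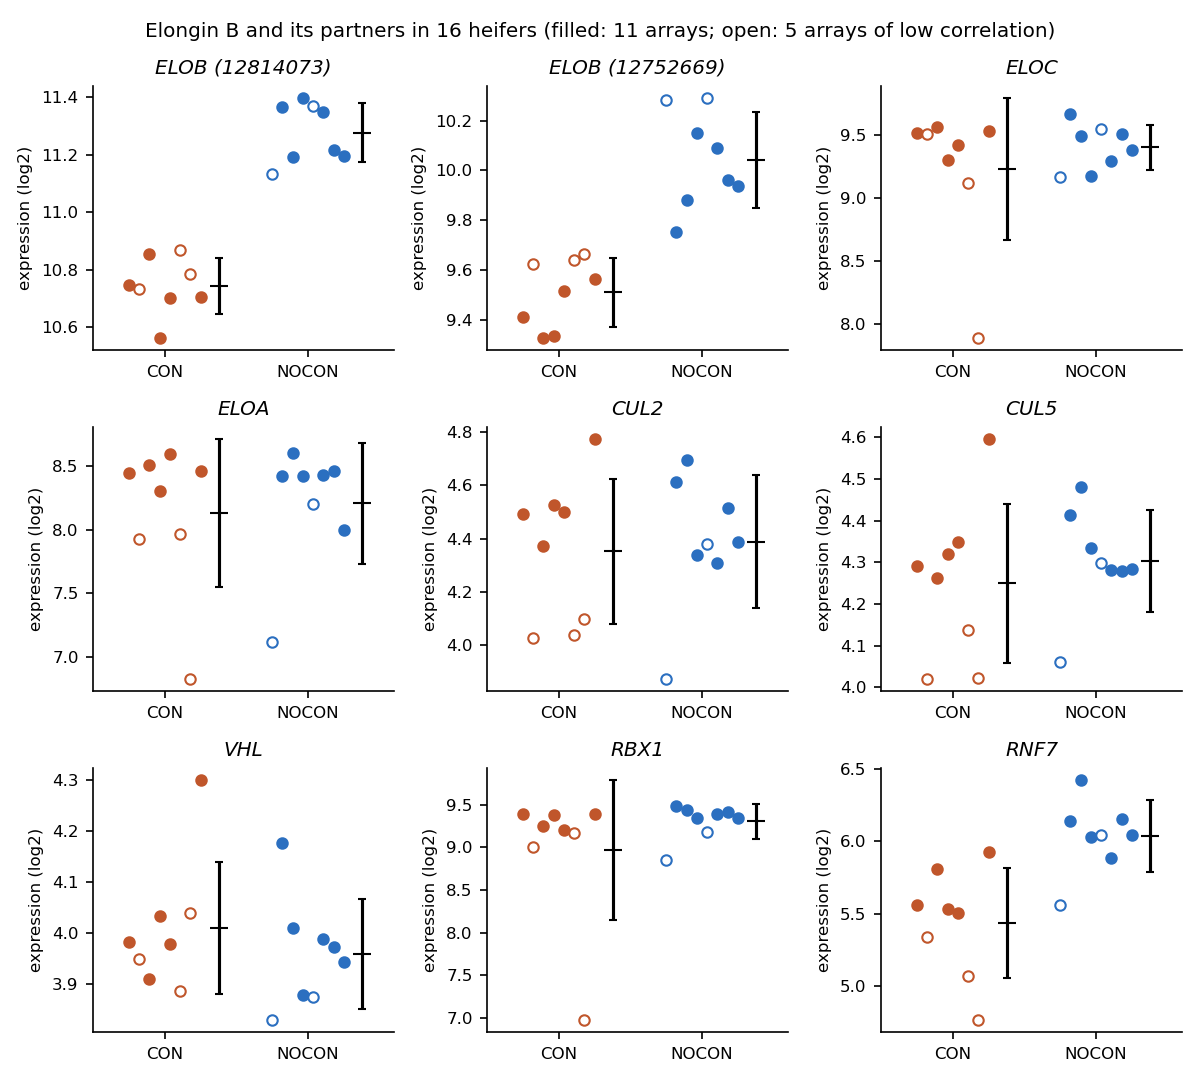
Expression (log2, vertical axes that do not start at 0) of the 9 probe sets in each heifer by feeding group. Filled points are the 11 arrays that correlate well, open points the 5 that stood apart, and black bars the mean ± SD over the 8 arrays of a group. Both ELOB probe sets separate the groups, RNF7 does so in part, and CON 7 is the lowest array for ELOC, ELOA, RBX1 and RNF7.

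No partner passed an adjusted p of 0.05 with limma over all 26773 probe sets, of which 16, or 0.0598%, did. Before adjustment 1 of the 7 partners, RNF7, had a limma p under 0.05, where 2320 probe sets, or 8.67%, had one. The exact permutation test over regroupings of the heifers had 1 partner before adjustment, against 2794 (10.4%) of all probe sets. After adjustment it had 0 partners and 0 of all probe sets. Since even probe sets without overlap between the groups did not pass it, nothing is read from that count for the partners. Lower means in CON were found for 6 of the 7 partners, where 48.1% of all probe sets were lower. The median difference of the partners was -0.077, against 0.0058 over all probe sets. Among the brightest 60% of probe sets, which leaves out VHL, these medians were -0.12 and -0.041. With the 5 arrays that stood apart left out, 2 of 7 partners and 14001 of 26773 probe sets were lower. The partner median was then 0.045, against -0.0042 over all probe sets. In that fit 0 partners passed in limma and RNF7 alone had an unadjusted p under 0.05, where 0.0859% and 8.62% of all probe sets did.

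RNF7, the RING partner of cullin 5, came closest to ELOB in the size of its difference. Its CON arrays ran from 4.76 through 5.52 to 5.93 and its NOCON arrays from 5.56 through 6.05 to 6.42. The groups overlapped, with CON 3 (5.81) and CON 8 (5.93) above the lowest NOCON array, NOCON 1 (5.56). The means were 5.44 ± 0.38 and 6.04 ± 0.25 (SD, n = 8 each), a difference of -0.60 (SE 0.15, 95% confidence interval -0.92 to -0.28). This is 1.51-fold lower, with an unadjusted limma p of 0.00114 and an adjusted p of 0.31, so RNF7 did not pass. The lowest values of both groups came from arrays that stood apart: CON 7 (4.76), CON 6 (5.07) and CON 2 (5.34) in CON, and NOCON 1 (5.56) in NOCON. Leaving out the 5 arrays gave a difference of -0.45 (SE 0.10, adjusted p = 0.218 with limma), and only CON 8 then reached into the range of NOCON, whose lowest array was NOCON 6 (5.89). With the first principal component of the arrays as a covariate the difference was -0.45 (SE 0.08), and this was the alternative in which RNF7 passed (adjusted p = 0.035 with limma). Over the 25 alternatives its adjusted p ran from 0.035 to 0.547 and its difference stayed below 0 in all 25.

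RBX1, the RING protein of cullin 2 and of most other cullins, differed by -0.33 (SE 0.28, adjusted p = 0.692 with limma). Its 95% confidence interval over all arrays, -0.93 to 0.26, held the difference of ELOB as well as no difference. Its CON arrays ran from 6.97 through 9.23 to 9.40 and its NOCON arrays from 8.85 through 9.37 to 9.48. CON 7 lay at 6.97 and the next CON array at 9.001, and the groups overlapped over most of their range. Without CON 7 the difference was -0.047, and without all 5 arrays it was -0.075 (SE 0.05, 95% confidence interval -0.18 to 0.03), an interval that leaves out the difference of ELOB. RBX1 was then at 9.33 ± 0.09 in 5 CON arrays and at 9.40 ± 0.05 in 6 NOCON arrays (SD).

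ELOC, which encodes the direct binding partner of elongin B, ran from 7.89 through 9.46 to 9.56 in CON and from 9.17 through 9.43 to 9.66 in NOCON. CON 7 (7.89) was again far below the other arrays, and the remaining values of both groups covered the same range. The difference was -0.17 (SE 0.20, adjusted p = 0.771 with limma), with a 95% confidence interval of -0.59 to 0.24 that holds both 0 and the difference of ELOB. Without CON 7 it was 0.019, and without the 5 arrays 0.048 (SE 0.08, interval -0.13 to 0.23). In those 11 arrays ELOC stood at 9.46 ± 0.10 in CON and 9.42 ± 0.17 in NOCON (SD), and the ELOB estimate lay outside the interval.

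ELOA, which encodes the subunit that makes the elongation complex active, ran from 6.82 through 8.38 to 8.60 in CON and from 7.12 through 8.42 to 8.60 in NOCON. The low ends were CON 7 (6.82) and NOCON 1 (7.12), and the groups overlapped. The difference was -0.077 (SE 0.25, adjusted p = 0.927 with limma), 0.11 without CON 7 and 0.075 (SE 0.09, interval -0.13 to 0.28) without the 5 arrays. As for ELOC, its sign thus turned on CON 7.

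The cullins and VHL had values near the array medians, where RMA compresses differences. CUL2 ran from 4.03 through 4.43 to 4.77 in CON and from 3.87 through 4.38 to 4.69 in NOCON (difference -0.035, SE 0.13, adjusted p = 0.935 with limma). CUL5 ran from 4.02 through 4.28 to 4.60 and from 4.06 through 4.29 to 4.48 (difference -0.054, SE 0.08, adjusted p = 0.824 with limma). In both genes the CON arrays that stood apart were the 3 lowest of their group, as was NOCON 1 in NOCON, and the groups overlapped almost completely. VHL, the HIF receptor, was the partner with the higher mean in CON, at 4.01 ± 0.13 against 3.96 ± 0.11 (SD, n = 8 each; difference 0.050, SE 0.06, adjusted p = 0.793 with limma). CON 8, at 4.30, was its highest array, and without it the difference was 0.0089. The 95% confidence intervals of CUL2 (-0.30 to 0.23), CUL5 (-0.22 to 0.12) and VHL (-0.08 to 0.18) all left out the difference of ELOB. At these dim levels the intervals say little. These intervals are for single probe sets and are not widened for the number compared. For these genes, RBX1, ELOC and ELOA alike, the ELOB difference set beside them was chosen on this contrast and may be too large. Its own interval on probe set 12814073 was -0.65 to -0.42.

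**Figure D2:**
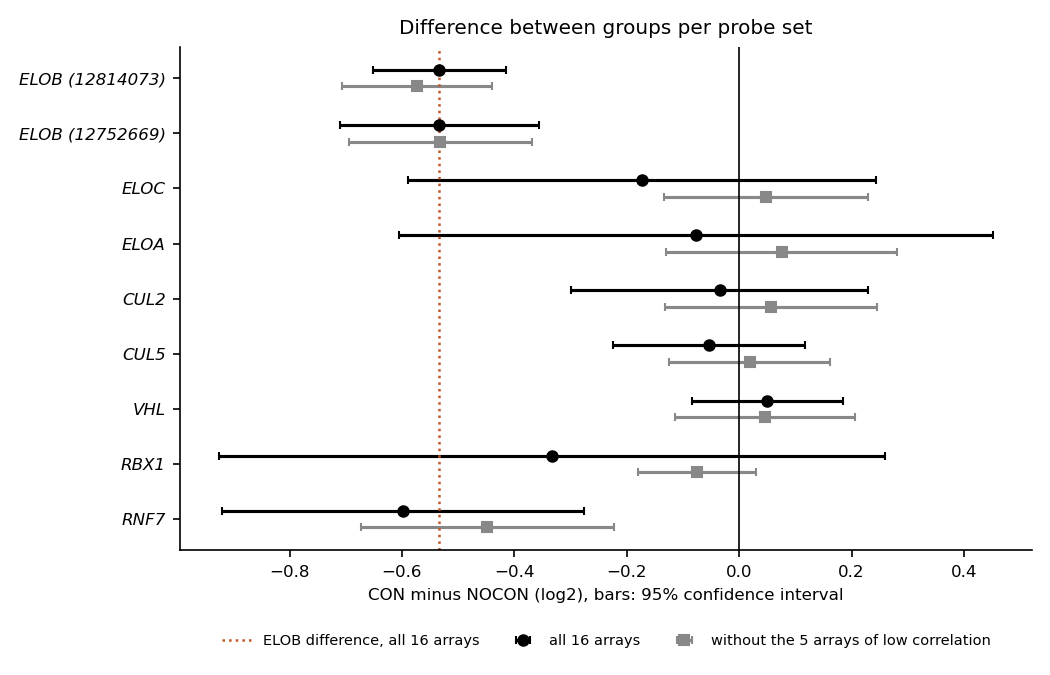
Difference between groups (CON minus NOCON, log2) of each probe set with its 95% confidence interval from limma, for all 16 arrays (black circles) and without the 5 arrays that stood apart (grey squares). The dotted line marks the ELOB difference of -0.53. With those 5 left out, of the partner intervals only that of RNF7 reaches this line.

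The spread between heifers of a group differed widely among the members. The pooled within-group SD of ELOB was 0.10 on probe set 12814073, and 12.5% of all probe sets had a smaller one, the median being 0.20. ELOB was chosen for its group difference, a choice that favours a small spread, so nothing is read from this rank. It was 0.17 on probe set 12752669, 0.42 for ELOC, 0.53 for ELOA, 0.60 for RBX1 and 0.32 for RNF7. In the other 11 arrays the last 4 were 0.15, 0.17, 0.07 and 0.18, while ELOB was at 0.10 on 12814073 and at 0.13 on 12752669. CON 7, the array with the lowest values of ELOC, ELOA, RBX1 and RNF7, held 10.79 for ELOB, close to the CON median of 10.74.

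The ELOB probe sets were used to ask whether partners follow ELOB from heifer to heifer within a feeding group, a relation that played no part in choosing the gene. With probe set 12814073, the r of all 7 partners was below 0 within CON (-0.53 to -0.19, median -0.28) and above 0 within NOCON (0.15 to 0.54, median 0.27). Leaving out 1 array turned the NOCON median, to -0.17 without NOCON 1, and moved it to 0.53 without NOCON 3. None of these 14 relations passed in exact permutation tests (two-sided, n = 8), where the adjusted p over 16 relations ran from 0.744 to 0.771. For Spearman's rho, adjusted exact p was 0.89 to 0.977 (n = 8). Before adjustment 0 of 7 partners had an exact p under 0.05 in either group, where 2.09% of all probe sets had one in CON and 5.01% in NOCON. The medians over all probe sets were 0.053 and -0.0027, with the middle 50% between -0.26 and 0.28 in CON and between -0.29 and 0.29 in NOCON. Below 0 were 45.8% of all probe sets in CON and 50.3% in NOCON. The 7 partners also varied together (median r between them 0.68 in CON and 0.76 in NOCON), so their shared signs are not separate results.

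The strongest single values were those of CUL2 in CON and ELOA in NOCON. For CUL2 in CON r was -0.53 (exact p = 0.18) and rho -0.67 (exact p = 0.0831), and without the 2 arrays farthest from the ELOB median, CON 4 and CON 6, r was -0.36. For ELOA in NOCON r was 0.54 (exact p = 0.131) and rho 0.048 (exact p = 0.935). Without NOCON 1 and NOCON 4 the latter r was -0.0086, so it rested on those arrays. For ELOC, the direct partner, r was -0.19 in CON (exact p = 0.558, rho -0.048, exact p = 0.935) and 0.18 in NOCON (exact p = 0.651, rho 0.31, exact p = 0.462), or -0.23 and 0.26 without the 2 farthest arrays. For RNF7 r was -0.28 in CON (exact p = 0.505, rho -0.29, exact p = 0.501) and 0.15 in NOCON (exact p = 0.723, rho -0.095, exact p = 0.84), or -0.096 and -0.55 without them. Centring each array on its median, which subtracts 1 number per array from ELOB and the partners alike, gave a median r of 0.48 in CON and 0.44 in NOCON, where the medians over all probe sets were 0.29 and 0.086. With quantile normalization the partner medians were -0.38 and 0.72, against 0.011 and -0.035 over all probe sets. The sign of the partner median thus turned in CON with centring, and in NOCON with neither scaling. Within NOCON it was -0.066 in the 6 arrays left after those that stood apart. No correlation is given over the 5 CON arrays left, since 6 was the fewest used for one.

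**Figure D3:**
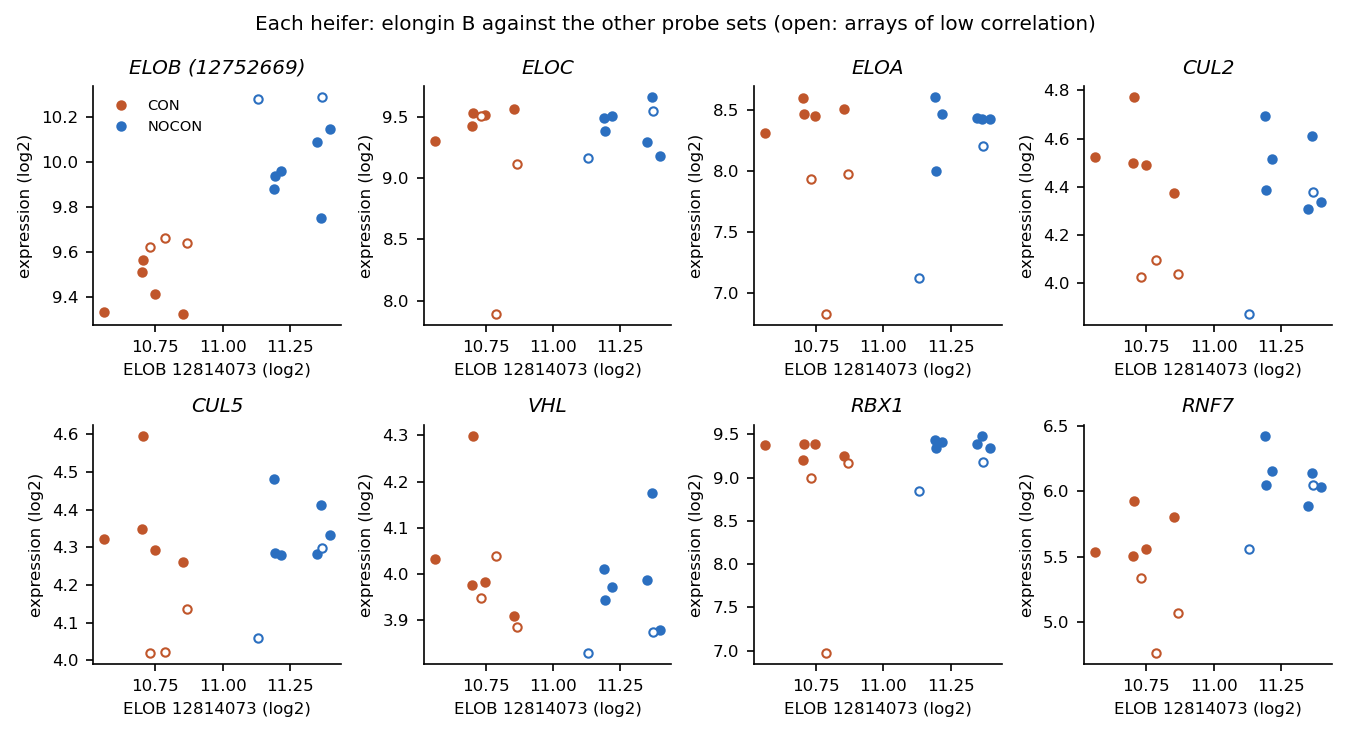
Expression (log2) of the other 8 probe sets against ELOB probe set 12814073, 1 point per heifer, CON in orange and NOCON in blue, with open points for the 5 arrays that stood apart. The groups lie apart along the horizontal axis in every panel, and within a group no relation with a partner passed the exact permutation test.

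Within groups the ELOB probe sets had no relation to each other that passed either. Their r was 0.33 in CON (exact p = 0.436, rho 0.31, exact p = 0.462, n = 8) and 0.046 in NOCON (exact p = 0.902, rho 0.21, exact p = 0.619, n = 8). Without the 2 arrays farthest from the ELOB median, r was -0.48 and 0.36. On probe set 12752669 the arrays that stood apart were the highest of their groups: CON 7 (9.66), CON 6 (9.64) and CON 2 (9.62) in CON, and NOCON 5 (10.29) and NOCON 1 (10.28) in NOCON. By contrast NOCON 1 was the lowest NOCON array for all 7 partners, and CON 7 the lowest CON array for ELOC, ELOA, RBX1 and RNF7. With the partners, 13 of 14 relations of 12752669 were negative, 6 of 7 in CON (median -0.54) and 7 of 7 in NOCON (median -0.69). Of all probe sets 43.6% and 43.9% were negative, with medians of 0.15 and 0.14. The spread over all probe sets was wide, the middle 50% lying between -0.44 and 0.51 in CON and between -0.48 and 0.57 in NOCON.

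In NOCON 4 of 7 partners had an unadjusted exact p under 0.05 (two-sided permutation test on r, n = 8), and 27.7% of all probe sets had one there. In CON 0 of 7 had one, against 16.7% of all probe sets. Adjusted over all 26772 probe sets none passed in either group, and the smallest adjusted exact p of a partner was 0.0852. Adjusted over the 14 relations alone 2 passed, both in NOCON. For VHL r was -0.89 (adjusted exact p = 0.0243) and for RBX1 -0.79 (adjusted exact p = 0.0326). Without NOCON 2 and NOCON 5, the arrays farthest from the median, r was -0.85 and -0.80. Spearman's rho, at -0.88 and -0.83, had adjusted exact p of 0.101 and 0.108 and did not pass. In CON the same pairs had an r of 0.12 (exact p = 0.841, rho 0.095) and -0.54 (exact p = 0.111, rho -0.69). The part of array quality in these relations was not tested.

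Relations among the partners themselves were computed for all 21 pairs in each group, and the 42 values were adjusted together. In CON 19 of 21 r were above 0 (median 0.68), and in NOCON 21 of 21 (median 0.76). On r, 8 of 21 pairs passed in CON and 10 of 21 in NOCON (exact permutation tests, two-sided, n = 8), and on Spearman's rho 1 and 2 did. No share over pairs of other probe sets was computed, so these counts are not read as particular to the partners. Without the 2 arrays farthest from the median of a pair's first gene, the median r was 0.42 in CON and 0.58 in NOCON. In the 6 NOCON arrays left after those that stood apart, the median was 0.56 and r ran from 0.18 to 0.92. NOCON 1 was the lowest NOCON array for every partner, and its part and that of the other arrays in these relations was not tested.

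The pairs that passed on both measures were CUL2 with CUL5, the scaffolds of the 2 ligases, in CON and CUL2 with RNF7 in NOCON. For CUL2 and CUL5 in CON r was 0.96 (adjusted exact p = 0.0161) and rho 0.95 (adjusted exact p = 0.016), and r was 0.98 without CON 2 and CON 6. For CUL2 and RNF7 in NOCON r was 0.97 (adjusted exact p = 0.00729) and rho 0.98 (adjusted exact p = 0.016), and r was 0.85 without NOCON 1 and NOCON 3. For VHL and RBX1 in NOCON rho was 0.95 (adjusted exact p = 0.016), while r, at 0.75, did not pass (adjusted exact p = 0.0958). CUL5 and RNF7, the scaffold and RING protein of 1 ligase, passed on r alone, at 0.81 in CON (adjusted exact p = 0.0407) and 0.93 in NOCON (adjusted exact p = 0.0349), or 0.87 and 0.41 without the 2 farthest arrays. ELOC and ELOA, subunits of the elongation complex, had an r of 0.93 in CON (adjusted exact p = 0.0407, rho 0.64), which was 0.047 without CON 6 and CON 7. In NOCON their r was 0.51 (adjusted exact p = 0.227, rho 0.38).

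The genes whose pattern was most like ELOB were ranked by r with probe set 12814073 over the deviations of the 16 arrays from their group means. No partner was near the top: their r ran from -0.13 (CUL2) to 0.12 (ELOA), and probe set 12752669, at 0.16, ranked at 6248 of 26772. The 10 named genes with the highest r were MIR885 (0.77), CRTAP (0.74), PCOLCE (0.70), SARM1 (0.69), CSK (0.69), ITPRIPL1 (0.68), SRD5A1 (0.68), PDGFA (0.67), MIR1307 (0.67) and PRICKLE2 (0.67). CRTAP and PCOLCE encode proteins of collagen maturation, PDGFA a growth factor, CSK a kinase that holds Src kinases in check and SRD5A1 a steroid reductase. The annotation names no mature arm for the microRNA genes. MIR885, SARM1, ITPRIPL1, SRD5A1, MIR1307 and PRICKLE2 had group means from 3.33 (MIR1307) to 4.16 (ITPRIPL1), below the array medians. The 10 genes were picked as the highest, so their r values are a description. Over all probe sets the median r was 0.023 and the 95th percentile 0.33, and 40 probe sets reached 0.6. The differences of these 10 genes between the groups ran from -0.11 to 0.10, with adjusted p from 0.583 to 0.956 in limma.

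The wider pathway was followed with 5 gene lists, taking the brightest probe set of each gene. Over all 18435 named genes, 5.27% had an unadjusted limma p under 0.05 with a lower mean in CON and 2.65% with a higher one, and the median difference was -0.0037. At any p, 9425 of the 18435 had a lower mean in CON. No list member passed an adjusted p of 0.05 with limma, where 2 of the 18435 genes, or 0.0108%, did.

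The substrate receptors of the cullin 2 and cullin 5 ligases had 27 of 48 measured members with lower means in CON (median -0.018). Of the 48, 3 had an unadjusted p under 0.05 and a lower mean, and 1 a higher mean. ASB6, an ankyrin repeat receptor with a SOCS box, averaged 5.01 ± 0.18 in CON against 5.34 ± 0.16 in NOCON (SD, n = 8 each; difference -0.34, SE 0.08, adjusted p = 0.303 with limma). SOCS1, a suppressor of cytokine signalling, differed by -0.15 (SE 0.06), and FEM1A, a receptor for C-terminal degrons, by -0.28 (SE 0.12), both with an adjusted p over 0.5 (0.537 and 0.558). In the other 11 arrays the differences of ASB6, SOCS1 and FEM1A were -0.20, -0.10 and -0.16, and the median of the list was -0.010. Of the 48, 3 were then lower and 4 higher at an unadjusted p under 0.05, where 4.58% of all named genes were lower and 3.78% higher. The 4 higher ones, named after their values were seen, were FEM1B (0.21), ZYG11B (0.27), SPSB3 (0.21) and ASB14 (0.10), and the 3 lower ones were ASB6, FEM1A and SPSB2 (-0.24).

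The other cullins and their adaptors had lower means in 6 of 11 measured members (median -0.032), with 2 lower and 1 higher at an unadjusted p under 0.05. SKP1, the adaptor of cullin 1 and the counterpart of elongin C there, averaged 9.11 ± 0.14 in CON against 9.34 ± 0.12 in NOCON (SD, n = 8 each; difference -0.23, SE 0.07, adjusted p = 0.409 with limma). KEAP1, a cullin 3 receptor, differed by -0.36 (SE 0.15) and the F-box protein SKP2 by 0.16 (SE 0.07). Leaving out the 5 arrays gave -0.20, -0.17 and 0.12 in the same order. The list's median was then 0.036, with 4 of 11 lower, and 1 gene was lower and 2 were higher at an unadjusted p under 0.05.

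The list of the cullin modifier NEDD8 and its enzymes, the COP9 signalosome that removes it, cullin exchange factors and ubiquitin enzymes that act with cullins had 24 of 29 measured members lower on average in CON (median -0.12), 4 of them at an unadjusted p under 0.05. NEDD8 itself, the ubiquitin-like protein that switches cullins on, averaged 8.97 ± 0.23 in CON against 9.32 ± 0.23 in NOCON (SD, n = 8 each; difference -0.36, SE 0.11, adjusted p = 0.418 with limma). In the other 11 arrays its difference was -0.34 (adjusted p = 0.0703), whereas 14 of the 29 genes were then lower and the median of the list was 0.00095. The COP9 signalosome subunit COPS2 (-0.35, SE 0.14) and the NEDD8-activating enzyme subunit UBA3 (-0.43, SE 0.18) differed by -0.092 and -0.13 without the 5 arrays. In that fit 1 of the 29 was lower and 1 higher at an unadjusted limma p under 0.05, against 4.58% and 3.78% of all named genes.

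RNA polymerase II elongation factors had 27 of 35 measured members lower on average in CON (median -0.17), again with 4 at an unadjusted p under 0.05. NELFA and NELFE, subunits of the complex that holds polymerase near promoters, differed by -0.19 (SE 0.07) and -0.25 (SE 0.10), and LARP7, which binds the 7SK RNA, by -0.29 (SE 0.12). Their adjusted p ran from 0.526 to 0.547 in limma. The median without the 5 arrays was -0.025, with 24 of 35 lower, and the differences of NELFA, NELFE and LARP7 were -0.033, -0.12 and -0.17. At an unadjusted limma p under 0.05, 4 of the 35 were then lower and 1 higher, where 4.58% and 3.78% of all named genes were.

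The list of HIF factors, their regulators and HIF target genes had 18 of 27 members lower on average in CON (median -0.054), 2 of them at an unadjusted p under 0.05. LDHA, a glycolytic enzyme, differed by -0.51 (SE 0.23), the glucose transporter SLC2A1 by -0.26 (SE 0.12) and the matrix enzyme LOX by 0.12 (SE 0.07), with adjusted p from 0.562 to 0.625 in limma. With the 5 arrays left out these were -0.16, -0.17 and 0.033, 11 of 27 were lower and the median was 0.031. Of the 27, 2 were then lower and 1 higher at an unadjusted limma p under 0.05, against 4.58% and 3.78% of all named genes.

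**Figure D4:**
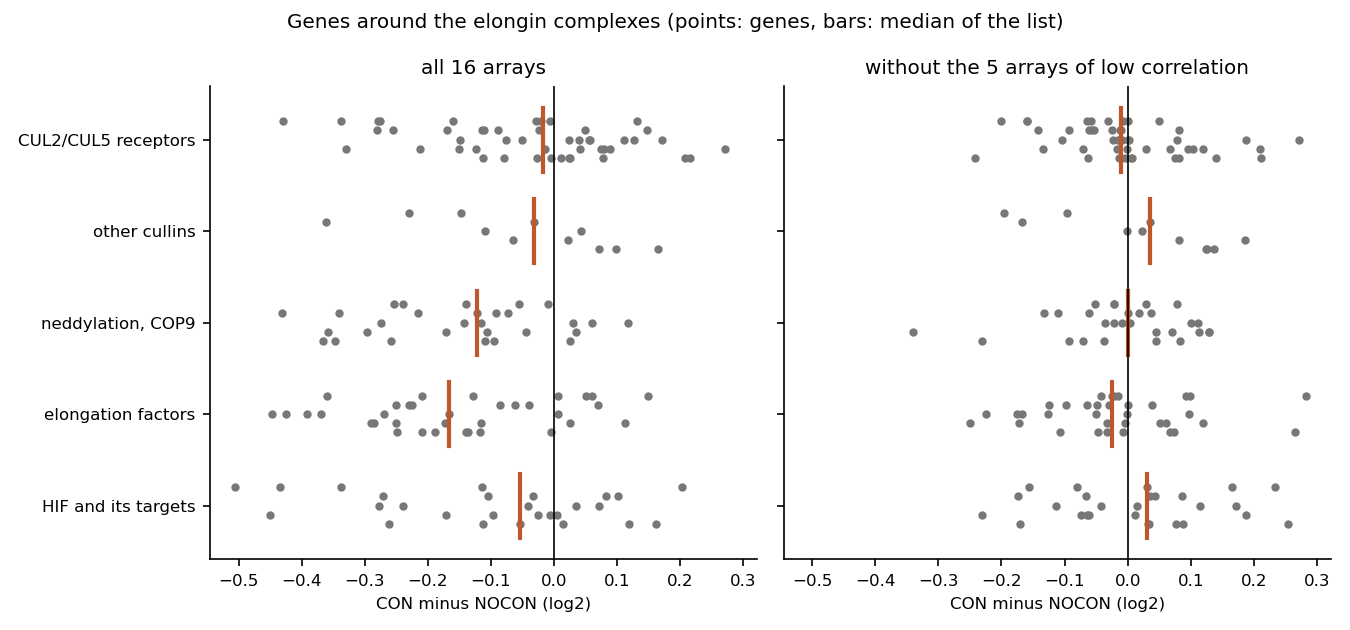
Difference between groups (CON minus NOCON, log2) of each gene in the 5 lists, for all 16 arrays (left) and without the 5 arrays that stood apart (right). Grey points are genes, spread vertically for sight, and orange bars are list medians. The medians of -0.12 for neddylation and -0.17 for elongation factors move to 0.00095 and -0.025 on the right.

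Several cell type marker lists were lowest in arrays that stood apart. The mean level of 12 of 12 luminal markers ran from 8.48 (CON 7) to 8.88 in CON and from 8.80 to 9.01 in NOCON. The mean of 5 of 5 endothelial markers ran from 5.24 (CON 7) to 7.51 in CON and from 5.76 (NOCON 1) to 7.41 in NOCON, and that of 6 of 7 myoepithelial markers from 6.30 (CON 7) to 7.41 and from 6.36 (NOCON 1) to 7.16. For 8 of 8 leukocyte markers the ranges were 5.35 to 5.83 and 5.32 to 5.83, for 6 of 6 fibroblast markers 7.28 to 7.76 and 7.25 to 7.74, and for 6 of 6 adipocyte markers 5.13 to 5.33 and 5.11 to 5.29. Erythrocyte markers (4 of 4, 3.91 to 4.42 and 3.95 to 4.08) and skeletal muscle markers (4 of 5, 3.89 to 4.21 and 3.82 to 4.36) lay near or below the array medians. No marker is listed at 0, since RMA gives every probe set a value. The ranges of the 2 groups overlapped for all 8 marker lists, and the part of cell makeup in the partners' values was not tested.

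No measured gene next to ELOB on its chromosome showed a difference of its size in the same direction, but most were dim. In the gene order of the ARS-UCD2.0 assembly, used for order alone, the 5 measured genes on either side were PRSS27, PRSS22, ZG16B, PRSS21 and PRSS33 before it and SRRM2, FLYWCH2, FLYWCH1, KREMEN2 and PAQR4 after it. Their differences ran from -0.18 (PRSS22) to 0.47 (ZG16B) with a median of 0.018, and 4 of 10 were lower in CON. None passed with limma (adjusted p from 0.557 to 0.984), and 1, PRSS22, had an unadjusted p under 0.05. PRSS33, the nearest on one side, differed by 0.019 (SE 0.14), and SRRM2, a spliceosome protein gene on the other, by 0.016 (SE 0.24). The intervals of ZG16B, PRSS22, PRSS21, PRSS27, PRSS33, SRRM2 and the other 4 all left out -0.53. PRSS27, PRSS22, PRSS21, FLYWCH2, FLYWCH1, KREMEN2 and PAQR4 averaged 3.92 to 4.44 in CON and 4.03 to 4.34 in NOCON. These levels are near or below the array medians, where RMA compresses differences, so the intervals of these genes say little. The set of neighbours was chosen after the data were seen.

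**Figure D5:**
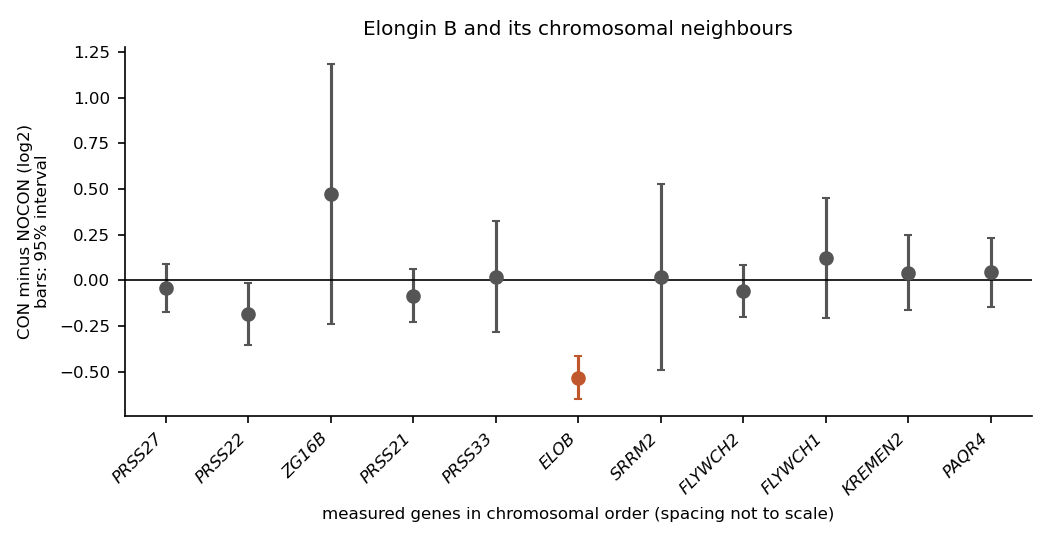
Difference between groups (CON minus NOCON, log2) with 95% confidence intervals for ELOB (orange) and the 5 measured genes on each side of it (grey), in chromosomal order and not to scale. ELOB is at -0.53, and its neighbours lie between -0.18 and 0.47.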

How the data were processed

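Biotin-labelled cRNA from the biopsies was measured on Affymetrix arrays, per the labels' protocols. The log2 values are those the authors deposited, and the submitters' processing notes name GCOS and RMA with no version. RMA corrects background, normalizes between arrays and summarises probes. Sources used here do not give the log base, and values from 2.73 to 12.66 were read as log2. The annotation gives 1 symbol to 18790 probe sets, and all 8 members were found in the RefSeq gene table of ARS-UCD2.0. The test was limma 3.58.1 in R 4.3.3 (lmFit and eBayes, no covariates), Benjamini-Hochberg over 26773 probe sets, threshold 0.05, and the fit was tested on simulated data. Replicates are separate heifers with 1 array each, so the spread of animal, biopsy and array cannot be separated. An array stands apart when its median correlation lies over 5 scaled median absolute deviations below the median. Members and lists were chosen with earlier results of these data known. Named genes are the members, the 3 genes with the smallest p per pathway list, the 10 most like ELOB, and up to 3 markers per cell type. Alternatives were a filter keeping the brightest 60%, a trended and robust variance prior, weights per array, centring on the median, quantile normalization, the replicate block, the first principal component, arrays left out, the exact test, an adjusted p of 0.10, the second ELOB probe set and Spearman's rho.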

Additional observations from a re-analysis of the deposited data

Results flagged for a closer look

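In groups of 8 arrays, the highest or lowest value was set against its nearest neighbour, and a gap whose share of the group's range passed Dixon's 95% critical value marked it. Of 18 groups tested, 6 held such a value, where chance marks about 1 in 20. CON 7 was far below the other CON arrays for RBX1 (6.97, next 9.001), ELOC (7.89, next 9.12) and ELOA (6.82, next 7.93). NOCON 1 was far below the other NOCON arrays for ELOA (7.12, next 8.00) and CUL2 (3.87, next 4.31). Both arrays are among the 5 of low correlation. CON 8, which is not, was far above the other CON arrays for VHL (4.30, next 4.04). No value of either ELOB probe set or of CUL5 or RNF7 was marked.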

How the results depend on the processing

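The difference of ELOB lay between -0.57 and -0.51 on probe set 12814073 and between -0.58 and -0.50 on 12752669 over 23 alternatives each. The count of partners past the threshold was 0 in 25 of 26 alternatives, among them the exact test, where no probe set passed. It was 1 (RNF7, adjusted p = 0.035 with limma) with the first principal component as a covariate. The count of all probe sets past it, 16 in the fit reported, was 67 with array weights, 44 with the principal component and 35 at an adjusted p of 0.10. It was 0 with the exact test, which even probe sets without overlap between the groups did not pass. It was 16 to 20 with 1 array left out, and with the replicate block it was 4. No pairing of heifers by replicate number was seen, though this check cannot exclude one. The correlation of deviations was over 0.1 in 2 of 8 pairs (-0.43 to 0.29). Of the 8 CON arrays, 1 correlated best with its own number, and the block changed no partner's call. Signs turned, with no call, for ELOC (0.034 with array weights, 0.017 with the principal component, 0.048 without the low-correlation arrays, -0.22 to 0.019 with 1 array left out), ELOA (0.072, 0.19, 0.075, -0.23 to 0.11, and 0.043 with quantile normalization), CUL2 (0.047, 0.067, 0.057, -0.11 to 0.012) and CUL5 (0.0089, 0.012, 0.018). The second ELOB probe set gave 2 partner relations past the threshold, adjusted over those relations alone, against 0. The median r of partners was 0.028 in CON with the principal component and 0.72 in NOCON with quantile normalization. With 1 array left out the partner median ran from -0.21 (without NOCON 1) to 0.0016 (without CON 7). No scaling moved the median of all probe sets by over 0.1, and for all these changes the cause was not tested. Detection above background was not measured, and CUL2, CUL5 and VHL are dim.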

Other observations

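Among probe sets without a symbol in the annotation, 12674977 had an r of 0.87 with ELOB probe set 12814073 over the deviations of 16 arrays from their group means, 0.89 within CON and 0.85 within NOCON. Its CON mean was 3.51 ± 0.12 and its NOCON mean 3.58 ± 0.14 (SD, n = 8 each), below the array medians, and differed by -0.066 (SE 0.07, adjusted p = 0.745 with limma). Probe sets 12755140 and 12698334 followed with r of 0.77 and 0.72. These were picked as the highest of 7598 unnamed probe sets, so the values are a description.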
